A study of Mus musculus with 7 samples.

Results

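The lipins and the acyltransferases that build triglyceride were examined in adipocytes lacking the short chain fatty acid receptor FFA2. The 10 genes were chosen by name, as rows of the deposited count table whose gene identifier carries the symbol Lpin1, Lpin2, Lpin3, Gpam, Gpat3, Gpat4, Agpat2, Agpat3, Dgat1 or Dgat2, and all 10 were found among 57010 gene identifiers. RNA had been sequenced from mature white adipocytes that collagenase freed from the perigonadal fat pad of male mice. Controls were 3 FFA2 fl/fl mice, which carry the floxed FFA2 alleles without Cre. The 4 Adipoq-F2-KO mice carry the same floxed alleles together with an adiponectin promoter-driven Cre transgene, which deletes FFA2 in cells that express adiponectin. Cre-negative littermates served as the controls, so FFA2 wild-type mice and mice with Cre alone were not analysed here. The mice shared cages across genotypes, received no treatment and were killed at an age of 20 weeks after eating the normal chow Teklad LM-485.

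In the glycerol phosphate pathway, a GPAT enzyme attaches the first fatty acid to glycerol-3-phosphate, an AGPAT enzyme adds the next and makes phosphatidate, a lipin removes the phosphate to leave diacylglycerol, and a DGAT enzyme adds the last fatty acid to give triglyceride. Lipins also enter the nucleus, where they act with transcription factors of lipid metabolism, and phosphatidate that a lipin does not use can go to phospholipids instead. In white adipocytes this pathway fills the lipid droplet, and loss of AGPAT2 or lipin 1 is a known cause of fat loss in people or mice. The comparison asks whether the other lipins, and the steps before and after them, differed between genotypes along with Lpin1.

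The 3 lipins are encoded by separate genes with their own promoters, and these are shown because only 1 of the 3 passed the genotype test. RefSeq promoter sequences (GRCm38.p6) were matched by symbol for 7 of the 10 genes, with 11 start sites between them, and Gpat4, Dgat1 and Dgat2 had no entry. The 250 bases before the first listed start are printed 5′ to 3′ on the gene's strand. They are chr12:16610967-16611216, minus strand, for Lpin1, chr17:71183282-71183531, plus strand, for Lpin2, and chr2:160880420-160880669, plus strand, for Lpin3. Capitals mark matches, on either strand, to the E-box (CACGTG), the CCAAT box (CCAAT), the GC box (GGGCGG), the TATA box (TATAAA), the half-site of the cyclic AMP response element (TGACG) or the half-site of nuclear receptors (AGGTCA).
Lpin1: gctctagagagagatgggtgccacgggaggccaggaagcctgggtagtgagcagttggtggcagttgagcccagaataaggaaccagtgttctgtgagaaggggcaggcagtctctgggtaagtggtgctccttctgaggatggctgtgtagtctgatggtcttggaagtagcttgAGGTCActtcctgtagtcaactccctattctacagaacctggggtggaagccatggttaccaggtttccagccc
Lpin2: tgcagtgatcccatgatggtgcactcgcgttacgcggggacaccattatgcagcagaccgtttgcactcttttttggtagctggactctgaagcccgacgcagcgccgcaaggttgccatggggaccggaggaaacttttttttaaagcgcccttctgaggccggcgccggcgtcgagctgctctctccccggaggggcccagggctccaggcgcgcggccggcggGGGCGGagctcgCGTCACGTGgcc
Lpin3: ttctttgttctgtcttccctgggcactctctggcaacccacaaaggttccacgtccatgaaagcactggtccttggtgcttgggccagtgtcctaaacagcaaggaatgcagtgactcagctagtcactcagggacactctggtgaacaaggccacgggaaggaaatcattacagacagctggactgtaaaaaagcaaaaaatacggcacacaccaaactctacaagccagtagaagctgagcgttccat
The Lpin1 window held a nuclear receptor half-site from position -74 to -69, with -1 the base before the start, and none of the other motifs. The Lpin2 window held a GC box from -24 to -19 and an E-box from -9 to -4, whose first bases overlap a cyclic AMP half-site from -12 to -8, so that both stand in 1 run of capitals. The printed Lpin3 window held none of these motifs. Start 2 of Lpin3, which is not printed, held a GC box from -111 to -106, with a GC content of 61.6%. Of the further listed starts of Lpin2, start 2 held a GC box (GC content 83.2%) and start 3 held 3 CCAAT boxes (44.8%). Across 32851 RefSeq mouse promoters of the same length, 14.0% held the nuclear receptor half-site, 6.02% the E-box, 32.7% the GC box, 17.8% the cyclic AMP half-site, 33.8% the CCAAT box and 12.4% the TATA box. GC content of the printed windows was 54.8% for Lpin1, 65.2% for Lpin2 and 49.6% for Lpin3. The motif matches describe the letters alone. Lpin1 has a longer gene model in the deposited table (111298 bases) than in the GRCm38 annotation (75298 bases), whereas the other 9 genes span the same length in both, so further Lpin1 starts may lie outside the printed window.

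Total counts per library lay between 30478997 and 39992605. Ffar2, the targeted gene, was at 37.5, 33.9 and 32.0 normalized CPM (the counts of a gene scaled to the TMM-adjusted library size) in FFA2 fl/fl libraries 1 to 3 and at 1.68, 1.15, 1.33 and 2.58 in Adipoq-F2-KO libraries 1 to 4, lower in every library labelled as the knockout. Of 17039 tested genes, 1.02% differed between genotypes at an adjusted p under 0.05 (edgeR quasi-likelihood test with Benjamini-Hochberg adjustment over all tested genes), 0.217% lower and 0.798% higher in Adipoq-F2-KO. All 10 adipocyte markers were measured in every library, with Adipoq between 2419 and 3762 normalized CPM. Their summed level ran from 42584.9 to 47801.8 normalized CPM over the FFA2 fl/fl libraries and from 32771 to 43346.4 over the Adipoq-F2-KO libraries. Adipoq-F2-KO library 4 held the lowest Adipoq value. Genes of the mitochondrial chromosome took 4.41%, 5.77% and 4.98% of the counts in FFA2 fl/fl libraries 1 to 3 and 7.82%, 6.61%, 9.24% and 10.3% in Adipoq-F2-KO libraries 1 to 4, so every knockout library lay above every control library.

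Lpin1 was lower in Adipoq-F2-KO adipocytes, and it alone of the 10 genes passed the test. Counting both directions, 1 of 10 genes was called against 1.02% of all tested genes, and Lpin1 had been chosen with its fall known from earlier results of these data. In FFA2 fl/fl libraries 1 to 3 Lpin1 was at 1063, 826 and 969 normalized CPM, and in Adipoq-F2-KO libraries 1 to 4 at 590, 541, 621 and 473. Every Adipoq-F2-KO library lay below every FFA2 fl/fl library. The fitted level was 41.6% lower (95% interval 30.1% to 51.3%), a log2 fold change of -0.78 with standard error 0.12 (edgeR, adjusted p = 0.0332). In these bulk samples, fewer adipocytes among the sequenced cells and less Lpin1 RNA per adipocyte cannot be told apart. The mitochondrial share separated the genotypes as fully as Lpin1 did, and its part in this and the other differences was not tested. The call rested on few mice. It was lost without FFA2 fl/fl library 1 (log2 fold change -0.69, edgeR adjusted p = 0.196), without FFA2 fl/fl library 3 (-0.75, edgeR adjusted p = 0.131) or without Adipoq-F2-KO library 2 (-0.76, edgeR adjusted p = 0.0590). Without Adipoq-F2-KO library 4 Lpin1 was at -0.71 (edgeR adjusted p = 0.0219).

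**Figure D1:**
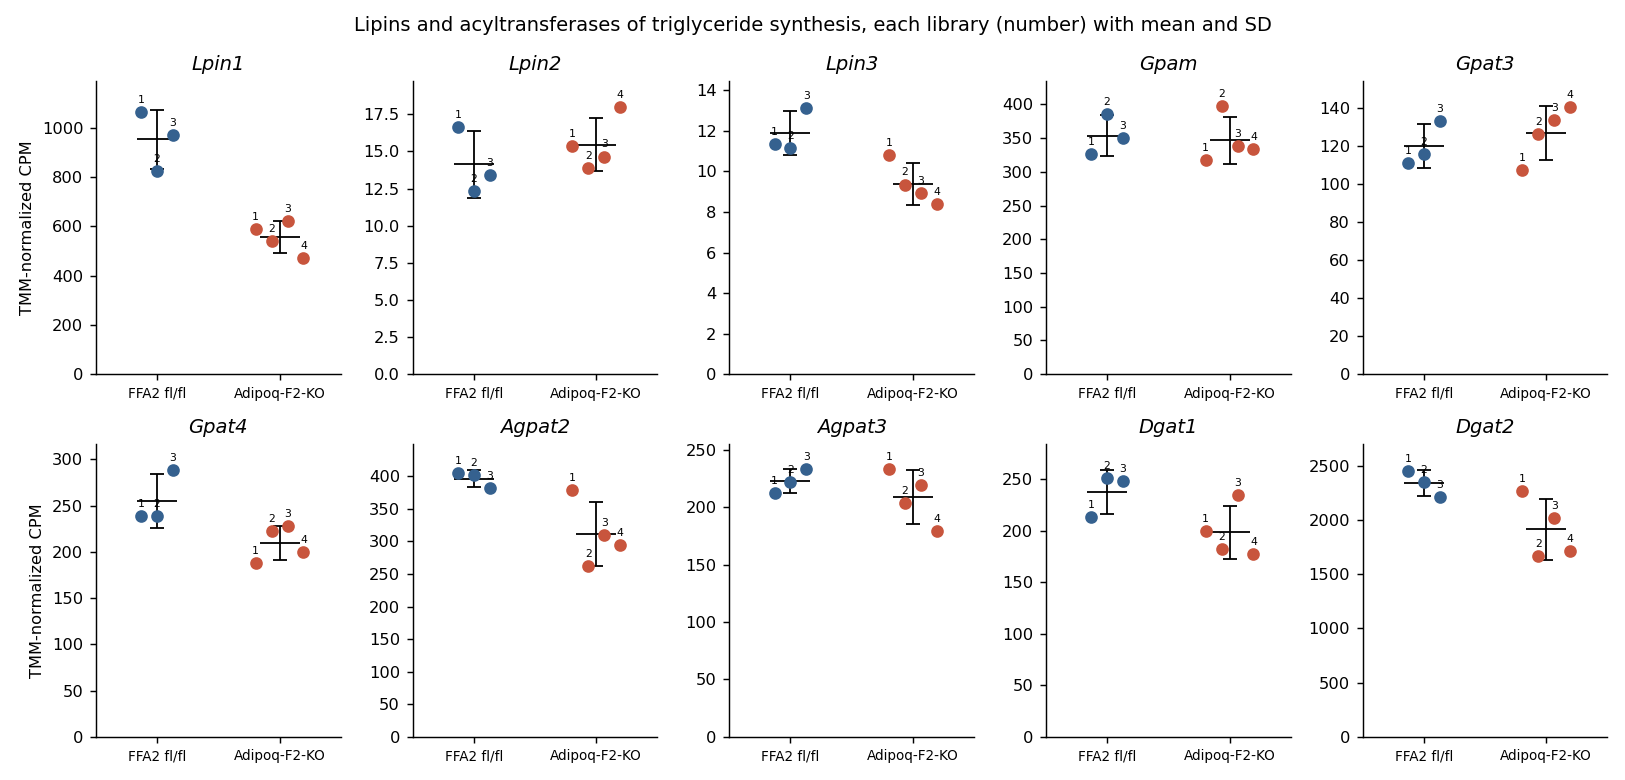
TMM-normalized CPM (vertical axes, each from 0) of the 10 genes in 3 FFA2 fl/fl and 4 Adipoq-F2-KO libraries. Points are libraries with their replicate number, horizontal bars the mean and whiskers the SD. Lpin1 is at 826 to 1063 in FFA2 fl/fl against 473 to 621 in Adipoq-F2-KO, whereas the points of Lpin2, Gpam, Gpat3, Agpat3, Dgat1 and Dgat2 overlap between genotypes.

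Lpin2, a phosphatidate phosphatase best known from liver, was at 16.7, 12.3 and 13.4 normalized CPM in FFA2 fl/fl and at 15.3, 13.9, 14.7 and 17.98 in Adipoq-F2-KO. The genotypes overlapped, and the log2 fold change was 0.13 (95% interval -0.19 to 0.45, edgeR adjusted p = 0.690). Lpin3, the remaining phosphatase of the family, was at 11.4, 11.1 and 13.2 normalized CPM in FFA2 fl/fl and at 10.8, 9.36, 8.96 and 8.41 in Adipoq-F2-KO. Its Adipoq-F2-KO values all lay below the FFA2 fl/fl values, with library 1 close to them. The log2 fold change of Lpin3 was -0.34 (95% interval -0.65 to -0.03), which did not pass adjustment over all genes (edgeR adjusted p = 0.246).

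Per exon length, Lpin1 supplied nearly all lipin transcript in both genotypes. It held 95.4% to 96.01% of the summed lipin RPKM (normalized CPM divided by the exon length in kilobases) in FFA2 fl/fl libraries and 92.7% to 94.5% in Adipoq-F2-KO libraries. The share of Lpin2 was 1.07% to 1.22% in FFA2 fl/fl against 1.81% to 2.86% in Adipoq-F2-KO, and that of Lpin3 was 2.76% to 3.48% and 3.67% to 4.60%. None of these 3 ranges overlapped between genotypes. The 3 shares are parts of 1 sum, so higher shares of Lpin2 and Lpin3 largely follow from the fall of Lpin1, known when it was chosen. Lpin3 itself was lower in level, at 3.22 ± 0.298 RPKM (SD, n = 3) in FFA2 fl/fl against 2.54 ± 0.278 (SD, n = 4) in Adipoq-F2-KO. Lpin2 was at 1.16 ± 0.184 RPKM (SD, n = 3) in FFA2 fl/fl against 1.26 ± 0.146 (SD, n = 4) in Adipoq-F2-KO, and Lpin1 at 95.9 ± 12.0 (SD, n = 3) and 56.0 ± 6.51 (SD, n = 4). The summed lipin level was 100.3 ± 12.2 RPKM (SD, n = 3) in FFA2 fl/fl against 59.8 ± 6.56 (SD, n = 4) in Adipoq-F2-KO, 40.4% lower, with no overlap.

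Of the GPAT enzymes of the first step, Gpam, the mitochondrial form, was at 326, 385 and 350 normalized CPM in FFA2 fl/fl and at 317, 398, 338 and 333 in Adipoq-F2-KO. The highest and the lowest library were both Adipoq-F2-KO. The log2 fold change was -0.03 (95% interval -0.26 to 0.20, edgeR adjusted p = 0.912), and its sign turned with scaling to adipocyte markers (0.25) and without FFA2 fl/fl library 2 (0.04) or Adipoq-F2-KO library 1 (0.01). Gpat3, an endoplasmic reticulum form that rises as adipocytes differentiate, was at 111, 116 and 133 normalized CPM in FFA2 fl/fl and at 107, 126, 133 and 140 in Adipoq-F2-KO. The genotypes overlapped, with a log2 fold change of 0.08 (95% interval -0.16 to 0.32, edgeR adjusted p = 0.754). Of the exon bases of Gpat3, 37.4% are shared with other annotated genes, mostly 4930458D05Rik on the opposite strand (mean 5.77 normalized CPM for FFA2 fl/fl, 5.59 for Adipoq-F2-KO), so its counts are less certain than those of the others.

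Gpat4, the other endoplasmic reticulum GPAT, was at 238.3, 238.4 and 288 normalized CPM in FFA2 fl/fl and at 188, 222, 227 and 200.1 in Adipoq-F2-KO. Every Adipoq-F2-KO value lay below every FFA2 fl/fl value (exact permutation test, unadjusted p = 0.0286, the smallest that 3 against 4 libraries allow). Of all tested genes 8.72% were lower without overlap, and 20.7% of those averaging 100 CPM or more. For Lpin3 and Agpat2 the exact permutation test gave p = 0.0571 each. The log2 fold change of Gpat4 was -0.28 (95% interval -0.51 to -0.05) and did not pass adjustment (edgeR adjusted p = 0.191). It was -0.17 without FFA2 fl/fl library 3, the highest of the controls (edgeR adjusted p = 0.574), and -0.0034 with scaling to adipocyte markers (edgeR adjusted p = 0.989). Summed over Gpam, Gpat3 and Gpat4, the GPAT level was 126 ± 8.68 RPKM (SD, n = 3) in FFA2 fl/fl against 120 ± 9.57 (SD, n = 4) in Adipoq-F2-KO, 4.77% lower and within the spread between libraries.

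Agpat2, the AGPAT form most abundant in fat, was at 405, 402.5 and 382 normalized CPM in FFA2 fl/fl and at 379, 262, 310 and 295 in Adipoq-F2-KO. The genotypes did not overlap, although Adipoq-F2-KO library 1 came within a few CPM of FFA2 fl/fl library 3. The log2 fold change of Agpat2 was -0.35 (95% interval -0.61 to -0.09), the largest fall after Lpin1 among the 10 genes, and it did not pass adjustment (edgeR adjusted p = 0.163). Agpat3, which also acylates other lysophospholipids, was at 213, 222 and 234 normalized CPM in FFA2 fl/fl and at 234, 204, 220 and 179 in Adipoq-F2-KO. The values overlapped, and the log2 fold change was -0.09 (95% interval -0.32 to 0.13, edgeR adjusted p = 0.685), turning to 0.18 with scaling to adipocyte markers. Agpat2 made up 86.7% of the summed level of Agpat2 and Agpat3 in FFA2 fl/fl against 84.4% in Adipoq-F2-KO. That sum, taken here for the AGPAT step, was 215 ± 4.75 RPKM (SD, n = 3) and 173 ± 25.4 (SD, n = 4), 19.4% lower in Adipoq-F2-KO, with no overlap. It leaves out Agpat1, Agpat4 and Agpat5, of which Agpat1, at a mean of 31.7 RPKM in the controls and 26.1 in the knockouts, was above Agpat3 in the controls.

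Dgat1, a DGAT with broad acyl acceptors, was at 213, 252 and 249 normalized CPM in FFA2 fl/fl and at 199.8, 182, 235 and 178 in Adipoq-F2-KO. Adipoq-F2-KO library 3 lay within the FFA2 fl/fl range and the other Adipoq-F2-KO libraries below it. Its log2 fold change was -0.26 (95% interval -0.51 to -0.01, edgeR adjusted p = 0.261), and 0.01 with scaling to adipocyte markers. Dgat2, which acts at the endoplasmic reticulum and the droplet surface, had the highest level of the 10 genes, at 2454, 2351 and 2212 normalized CPM in FFA2 fl/fl and at 2267, 1669, 2016 and 1710 in Adipoq-F2-KO. Only Adipoq-F2-KO library 1 reached the FFA2 fl/fl range, and the log2 fold change was -0.29 (95% interval -0.55 to -0.03, edgeR adjusted p = 0.235). Dgat2 held 90.7% of the summed DGAT level in FFA2 fl/fl against 90.5% in Adipoq-F2-KO. That sum was 837 ± 34.2 RPKM (SD, n = 3) and 686 ± 96.2 (SD, n = 4), 17.96% lower in Adipoq-F2-KO, with overlap. With scaling to adipocyte markers the falls of the summed levels were 28.4% for the lipins, 2.78% for the AGPAT step and 1.37% for the DGAT step, and the GPAT sum was higher in Adipoq-F2-KO.

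**Figure D2:**
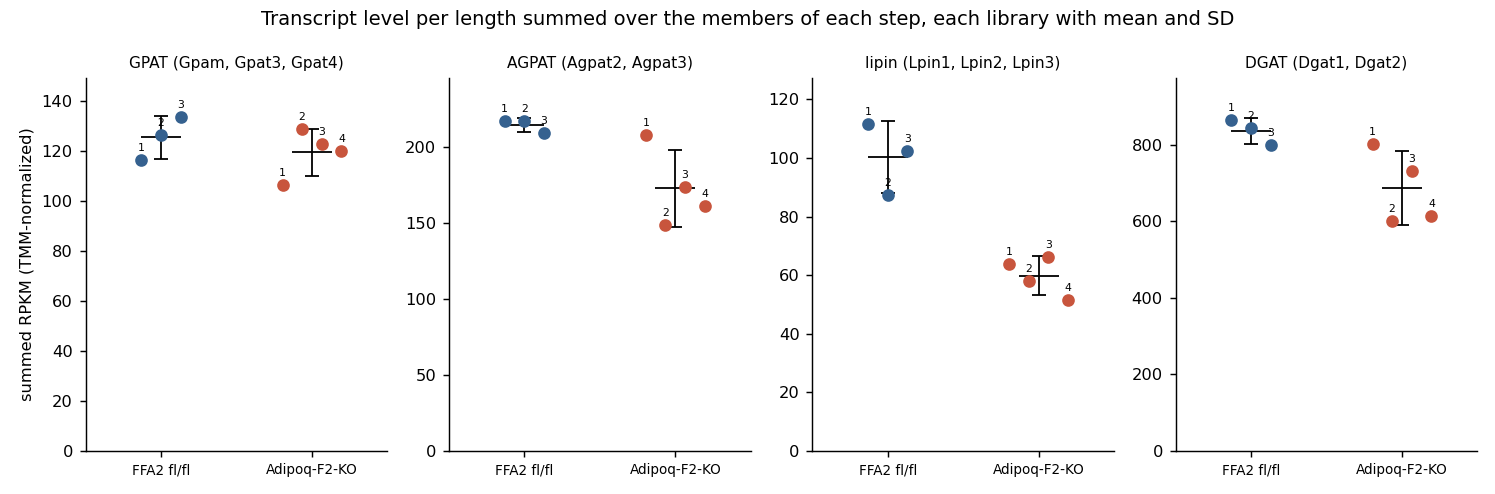
RPKM (vertical axes, each from 0) summed over the genes of each enzymatic step, per library, with the mean as a bar and the SD as whiskers, for 3 FFA2 fl/fl and 4 Adipoq-F2-KO libraries. The lipin sum is 100.3 against 59.8 and the AGPAT sum 215 against 173, both without overlap, while the GPAT sums (126 against 120) and the DGAT sums (837 against 686) overlap between genotypes. With scaling to adipocyte markers the GPAT sum is higher in Adipoq-F2-KO.

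In order of mean RPKM, FFA2 fl/fl adipocytes had Dgat2 at 759, Agpat2 at 186, Lpin1 at 95.9, Dgat1 at 77.8, Gpam at 53.1, Gpat4 at 38.2, Gpat3 at 34.3, Agpat3 at 28.6, Lpin3 at 3.22 and Lpin2 at 1.16. Only the neighbours Gpat4 and Gpat3 overlapped in their library values. In Adipoq-F2-KO the order was Dgat2 at 621 RPKM, Agpat2 at 146, Dgat1 at 65.0, Lpin1 at 56.0, Gpam at 52.0, Gpat3 at 36.2, Gpat4 at 31.4, Agpat3 at 26.8, Lpin3 at 2.54 and Lpin2 at 1.26. Here Lpin1 overlapped both of its neighbours, Dgat1 and Gpam, and so did Gpat4 with Gpat3 and Agpat3. Lpin1 thus lay above Dgat1 and Gpam without overlap in FFA2 fl/fl libraries and not in Adipoq-F2-KO libraries. The margin to Dgat1 was narrow, with Lpin1 at 83.2 RPKM and Dgat1 at 82.3 in FFA2 fl/fl library 2.

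Over the 10 genes, 8 had a log2 fold change below 0 and 2 above, where 49.6% of all tested genes, and 65% of the 1676 tested genes averaging 100 CPM or more, lay below 0. The median was -0.27, against 0.00 over all tested genes and -0.07 over those 1676. Without Lpin1 the median of the other 9 was -0.26, and their adjusted p-values ran from 0.163 to 0.912 (edgeR). At an unadjusted p under 0.05, 6 of 10 genes were lower (Lpin1, Lpin3, Gpat4, Agpat2, Dgat1 and Dgat2) and none was higher (0 of 10), where 7.37% of all tested genes were lower and 17.9% differed in either direction. Lpin1 was chosen with its fall known, and without it 5 of the other 9 genes were lower. Of the 1676 genes, 17% were lower at that threshold, and Lpin2 and Lpin3 are too low to be among them. The genotypes did not overlap, with Adipoq-F2-KO lower, for 4 genes (Lpin1, Lpin3, Gpat4 and Agpat2), beside 8.72% of all tested genes and 20.7% of the 1676. Lpin1 enters this count too by its choice. Adipoq-F2-KO was in no case (0 of 10) higher without overlap, against 8.86% of all tested genes. With DESeq2, which called 6.75% of the genes it tested and 1.72% as lower, Lpin1 was again the called gene among the 10.

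The adipocyte markers moved in the same direction. All 10 had log2 fold changes below 0. Their median was -0.30, with 5 at an unadjusted p under 0.05 and 0 called (edgeR). Of all tested genes 7.37% were lower at that threshold, and 17% of those averaging 100 CPM or more. Adipoq itself was at -0.23 (edgeR adjusted p = 0.386), at -0.12 without Adipoq-F2-KO library 4 and at 0.03 when libraries were scaled to this list, and Cfd was the most abundant. Macrophage markers were higher for 15 of 15 genes (median log2 fold change 0.61, 2 called, 12 at an unadjusted p under 0.05 in edgeR). Of all tested genes 0.798% were called higher and 10.5% were higher at an unadjusted p under 0.05. The macrophage markers summed to 540 to 737 normalized CPM for FFA2 fl/fl and 829 to 1015 for Adipoq-F2-KO, with Cd74 the most abundant. Endothelial markers were higher for 8 of 8 genes (median 0.49, 0 called, 6 at an unadjusted p under 0.05 in edgeR), summing to 801 to 1120 and 1108 to 1923 normalized CPM, with Cdh5 the most abundant. Fibroblast progenitor markers were higher for 7 of 8 genes (median 0.34, 0 called, 3 at an unadjusted p under 0.05 in edgeR), summing to 816 to 1092 and 1160 to 1352 normalized CPM, with Col3a1 the most abundant (0.41, and 0.23 without FFA2 fl/fl library 1). The part of these cells in the differences of the 10 genes was not tested. When libraries were scaled to the adipocyte markers in place of all genes, the median of all tested genes moved to 0.28 and that of the 10 genes to 0.00, with 5 lower and 5 higher. Lpin1 stayed lower and called under that scaling, at -0.51 (edgeR adjusted p = 0.0487), while the other 9 lay between -0.08 and 0.42 and none was called (0 of 9). Among these were Lpin3 at -0.07, Agpat2 at -0.08 and Dgat2 at -0.02.

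**Figure D3:**
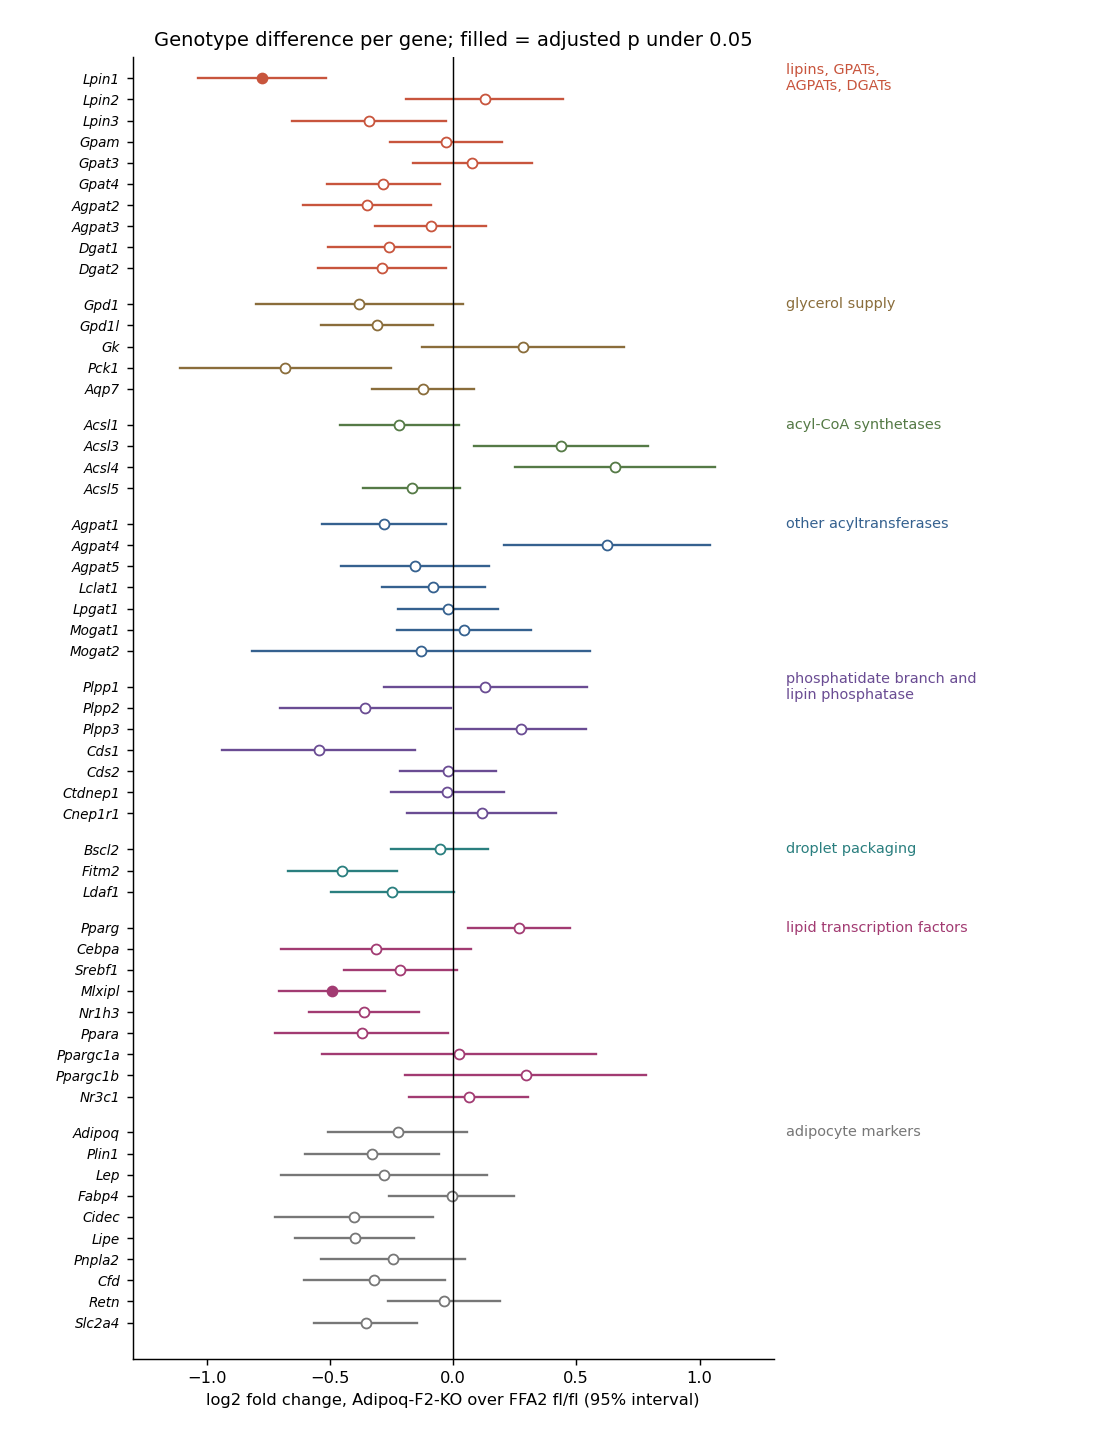
Log2 fold change of Adipoq-F2-KO over FFA2 fl/fl (horizontal axis) with its 95% interval for the 10 genes, the tested genes of 6 pathway lists and 10 adipocyte markers; filled circles have an edgeR adjusted p under 0.05. Lpin1 at -0.78 and Mlxipl at -0.49 are filled. Under scaling to adipocyte markers Gpam, Agpat3 and Dgat1 change sign.

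The ratio of Lpin1 to another gene within a library does not depend on how libraries are scaled, and asks directly whether that gene moved as far as Lpin1. The log2 ratio of Lpin1 to Lpin2 counts was 5.99, 6.06 and 6.17 in FFA2 fl/fl libraries and 5.26, 5.28, 5.40 and 4.71 in Adipoq-F2-KO libraries. The genotypes lay apart, with Adipoq-F2-KO library 4 farthest, and the mean differed by -0.91 with standard error 0.16 (exact permutation test, p = 0.0286). The ratio to Gpat3 differed by -0.85, that to Gpam by -0.74 and that to Agpat3 by -0.68, each without overlap (exact permutation test, p = 0.0286 for each). These 4 genes themselves had log2 fold changes between -0.09 and 0.13. The ratios thus largely restate the fall of Lpin1, which was known when it was chosen. Of the ratios of Lpin1 to all other tested genes, 67% were likewise lower without overlap.

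The ratio of Lpin1 to Dgat2 was -1.21, -1.51 and -1.19 on the log2 scale in FFA2 fl/fl libraries and -1.94, -1.63, -1.70 and -1.86 in Adipoq-F2-KO libraries. It differed by -0.48 with standard error 0.13, and the ratio to Dgat1 by -0.51 with standard error 0.18, again without overlap (exact permutation test, p = 0.0286 for each). The ratios to Gpat4 (-0.49) and Lpin3 (-0.44) did not overlap between genotypes either, by margins of 0.10 and 0.09 (exact permutation test, p = 0.0571 for each). For Agpat2 the ratio was 1.39, 1.04 and 1.34 in FFA2 fl/fl and 0.64, 1.05, 1.00 and 0.68 in Adipoq-F2-KO, with overlap and a difference of -0.42 with standard error 0.15 (exact permutation test, p = 0.0857). These p-values are two-sided and unadjusted over 9 ratios that share Lpin1. Lpin1 was chosen with its fall known, so a low ratio to some genes is given by that choice. In all, 8 of 9 ratios were below their FFA2 fl/fl range in each Adipoq-F2-KO library, where 67% of the ratios of Lpin1 to all other tested genes were.

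**Figure D4:**
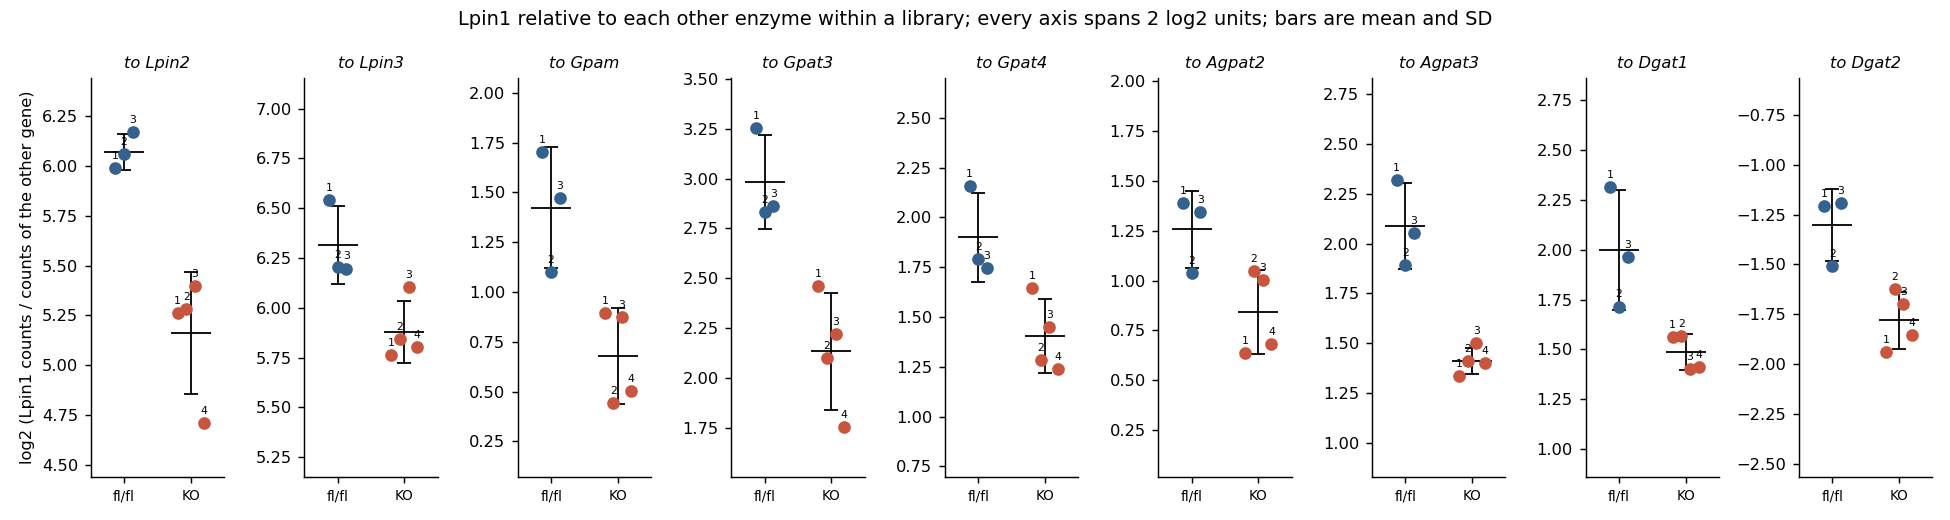
Log2 of Lpin1 counts over the counts of each of the other 9 genes (vertical axes, each spanning 2 log2 units) in 3 FFA2 fl/fl and 4 Adipoq-F2-KO libraries, with replicate numbers, the mean as a bar and the SD as whiskers. The difference runs from -0.91 for Lpin2 to -0.42 for Agpat2, and only the Agpat2 ratio overlaps between genotypes.

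Among 8540 tested genes that have a symbol and average 10 CPM or more, the 5 whose log2 normalized CPM followed Lpin1 most closely over the 7 libraries were Arfip2 (Pearson r 0.99), Ndrg2 (0.99), Ogdh (0.99), Osbpl9 (0.98) and Abcd3 (0.98). With genotype means subtracted, r was 0.94, 0.98, 0.94, 0.85 and 0.84. The 7 libraries share 2 genotypes, and the 5 are the top of a long ranking. Ndrg2 was at -0.45 (log2 fold change, standard error 0.11, edgeR adjusted p = 0.0675) and Arfip2 at -0.40 (standard error 0.09, edgeR adjusted p = 0.0699). Ogdh, a subunit of the oxoglutarate dehydrogenase complex, was at -0.18 (edgeR adjusted p = 0.292). The log2 fold changes of Ogdh, Osbpl9 and Abcd3 turned above 0 with scaling to adipocyte markers, and those of Ndrg2 and Arfip2 moved to -0.19 and -0.12. None of the other 9 lipins and acyltransferases was among the 5. Lpin3 (0.85) and Dgat2 (0.82) had the highest r with Lpin1 over the 7 libraries, falling to 0.44 and 0.58 with genotype means subtracted. Gpam was at -0.04 and -0.47. With genotype means subtracted Agpat3 had the highest r of the 9, at 0.59, and it was at 0.56 over the 7 libraries.

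Outside the 10 genes, 38 genes of 6 pathway lists were examined, of which 35 were tested and Acsl6, Gpat2 and Fitm1 were too low. Of the 35, 23 had a log2 fold change below 0 and 12 above, the median was -0.12, and 1 was called lower and 0 higher (edgeR). At an unadjusted p under 0.05, 9 were lower and 5 higher, where 7.37% and 10.5% of all tested genes were. The called gene was Mlxipl, encoding the carbohydrate-responsive transcription factor ChREBP, which drives genes of fatty acid and triglyceride synthesis. Mlxipl was at 114, 130 and 134 normalized CPM in FFA2 fl/fl and between 78.8 and 95.5 over the Adipoq-F2-KO libraries. The genotypes did not overlap, and the log2 fold change was -0.49 with standard error 0.10 (edgeR adjusted p = 0.0471). The Mlxipl call held without Adipoq-F2-KO library 4 and was lost with any other library left out (log2 fold change -0.56 to -0.43, edgeR adjusted p = 0.0540 to 0.200), with the replicate block (-0.52, edgeR adjusted p = 0.0604) and with scaling to adipocyte markers (-0.20, edgeR adjusted p = 0.456).

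Of the 9 lipid transcription factors, 5 were lower and 4 higher, with Mlxipl the member of largest size. Of 5 genes of glycerol supply, 4 were lower and 0 were called (edgeR, 2 at an unadjusted p under 0.05). Pck1, which makes the glycerol-3-phosphate precursor from pyruvate-derived carbon, had the largest difference. Pck1 was at 3415, 3530 and 3227 normalized CPM in FFA2 fl/fl and at 2267, 2138, 2763 and 1293 in Adipoq-F2-KO. Each Adipoq-F2-KO library lay below each FFA2 fl/fl library, library 4 the lowest, and the log2 fold change was -0.68 with standard error 0.20 (edgeR adjusted p = 0.113).

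Of 4 tested acyl-CoA synthetases, which activate fatty acids, 2 were lower and 2 higher, and 0 were called (edgeR, 2 at an unadjusted p under 0.05). The largest difference was in Acsl4, which prefers polyunsaturated fatty acids. It was at 23.8, 28.9 and 27.1 normalized CPM in FFA2 fl/fl and at 30.7, 38.3, 40.8 and 58.1 in Adipoq-F2-KO, with no overlap, and the log2 fold change was 0.66 with standard error 0.18 (edgeR adjusted p = 0.108). Of 7 other acyltransferases tested, 5 were lower, 2 were higher and 0 were called (edgeR, 2 at an unadjusted p under 0.05), with Agpat4 the largest at 0.62 (standard error 0.19, edgeR adjusted p = 0.130). Both Acsl4 and Agpat4 were highest in Adipoq-F2-KO libraries, as were the summed macrophage and fibroblast progenitor markers, whose part in these differences was not tested.

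The phosphatidate branch holds other phosphatases, the CDP-diacylglycerol synthases that draw phosphatidate into phospholipids, and the phosphatase that acts on lipins. Of its 7 genes, 4 were lower, 3 were higher and 0 were called (edgeR, 3 at an unadjusted p under 0.05). Cds1, a CDP-diacylglycerol synthase, had the largest difference at -0.55 (standard error 0.18, edgeR adjusted p = 0.152). With each library left out Cds1 ranged from -0.67 to -0.31. The smallest fall (edgeR adjusted p = 0.507) came without FFA2 fl/fl library 1, the highest of its controls. Cds1 was at -0.27 with scaling to adipocyte markers (edgeR adjusted p = 0.473). It was called lower with a minimum of 1 count (-0.55, edgeR adjusted p = 0.0192) and not with DESeq2 (adjusted p = 0.0745). Ctdnep1 and Cnep1r1, the subunits of the lipin phosphatase, were at -0.02, turning to 0.25 with scaling to adipocyte markers, and 0.12 (edgeR adjusted p = 0.933 and 0.703). Of 3 droplet packaging genes tested, 3 were lower and 0 were called (edgeR, 1 at an unadjusted p under 0.05). Fitm2, which helps lipid droplets bud from the endoplasmic reticulum, was at 242, 228 and 244 normalized CPM in FFA2 fl/fl and at 193, 181, 176 and 147 in Adipoq-F2-KO. The genotypes lay clearly apart, and the log2 fold change was -0.45 with standard error 0.10 (edgeR adjusted p = 0.0588). DESeq2 (adjusted p = 0.00220) and limma voom (adjusted p = 0.0499) called Fitm2 lower, whereas with scaling to adipocyte markers it was at -0.18 (edgeR adjusted p = 0.323). Pck1 was at -0.44 under that scaling (edgeR adjusted p = 0.101). DESeq2 also called Pck1 lower (adjusted p = 0.00941) and Acsl4 and Agpat4 higher (adjusted p = 0.0153 and 0.0497).

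In the deposited table's own coordinates, Lpin1 (ENSMUSG00000020593) lies on the minus strand of chromosome 12 from 16585670 to 16696967, with 28 merged exon blocks of 9930 bases that overlap no exon of another gene. Lpin2 (ENSMUSG00000024052) lies on the plus strand of chromosome 17 from 71489555 to 71556812, and Lpin3 (ENSMUSG00000027412) on the plus strand of chromosome 2 from 160722590 to 160747922. Agpat2 (ENSMUSG00000026922, chromosome 2 from 26483069 to 26494429) shares 64 exon bases, 3.00% of its exons, with Egfl7 on the opposite strand, and Egfl7 is 1 of the 8 endothelial markers. Apart from Gpat3, Agpat2 and Agpat3 (4.24% shared), the 10 genes overlap no exon of another gene.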

How the data were processed

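The libraries hold polyadenylated RNA of mature adipocytes, prepared with strand information and read from both ends. The authors used Trimmomatic for trimming, STAR for alignment and featureCounts for counting, and the deposited values are whole-number read counts per gene and library with no normalization. The labels name GRCm38 (mm10), but only 2.78% of 52029 gene models in the deposited table have the bounds of the GRCm38 annotation, so its coordinates are given as they stand. Between 85.5% and 88.8% of counts from 1 to 49 were even, so both mates of a pair appear to be counted. Strand and overlap options are not given in the sources used here. No per-sample column was left out. Libraries of a genotype differed by more than sampling noise in each of 9 pairs (chi-square over degrees of freedom, 41.5 to 165). Each library is 1 sample by its label, and p-values measure the spread between these samples, which may be technical in part.

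Identifiers were matched to symbols for 52029 of 57010 genes (Ldaf1 as Tmem159). Genes passing filterByExpr were TMM-normalized and tested in edgeR 4.0.16 (glmQLFit, glmQLFTest; R 4.3.3), with a two-sided test of genotype and Benjamini-Hochberg adjustment over 17039 genes. A gene was called at an adjusted p under 0.05. All 10 genes passed the filter. Standard errors are the log2 fold change over the root of the F statistic, and intervals are 95%. RPKM divide normalized CPM by the table's exon length. Ratios used a pseudocount of 2 counts. Values of 4 libraries were screened with Dixon's criterion. Scripts were tested on simulated data. Alternatives were RLE or library-size scaling, scaling to adipocyte markers, DESeq2 1.42.0, limma 3.58.1 voom, a minimum of 1 count, a replicate block and each library left out. Genes named are the 10, Ffar2, Adipoq, called genes and the gene of largest difference (mean at least 1 CPM) in each pathway list, the most abundant marker per cell type, and the 5 genes most like Lpin1. Other genes (Egfl7, 4930458D05Rik, Ctdnep1, Cnep1r1, Agpat1, Agpat5, Pparg, Nr1h3) were added after their values were seen. The 10 genes and all lists were chosen with earlier results of these data known.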

Additional observations from a re-analysis of the deposited data

Results flagged for a closer look

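Agpat4, an acyltransferase of low level in these adipocytes, was at 7.63 normalized CPM in Adipoq-F2-KO library 1, apart from the 6.38, 6.19 and 6.24 of Adipoq-F2-KO libraries 2 to 4. The gap was larger than Dixon's criterion allows for 4 values, and it was the single such case among 40 groups of 4 values examined, where chance alone flags about 1 in 20.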

How the results depend on the processing

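Lpin1 was the lone called gene among the 10 (1 of 10) under RLE scaling, library size scaling, scaling to adipocyte markers, DESeq2, limma voom, a minimum of 1 count and the replicate block. With each library left out in turn the number of the 10 called ranged from 0 to 1, and the log2 fold change of Lpin1 from -0.87 to -0.69, with the call lost without FFA2 fl/fl library 1, FFA2 fl/fl library 3 or Adipoq-F2-KO library 2. Over all alternatives the adjusted p of Lpin1 ran from 2.03e-07 (DESeq2) to 0.196, that of Mlxipl from 0.000705 to 0.456 and that of Fitm2 from 0.00220 to 0.323. With each library left out Gpam ranged from -0.10 to 0.04. Leaving out FFA2 fl/fl library 2 gave 0.035 and leaving out Adipoq-F2-KO library 1 gave 0.011. Scaling to adipocyte markers turned Gpam to 0.25, Agpat3 to 0.18 and Dgat1 to 0.0091. Under it the summed GPAT level was higher in Adipoq-F2-KO (percent lower of -16.01), and the sums were 2.78% lower for AGPAT, 28.4% for lipins and 1.37% for DGAT. It also turned Ctdnep1 to 0.25, Ogdh to 0.099, Osbpl9 to 0.12, Abcd3 to 0.066 and Adipoq to 0.030, and ended the call of Mlxipl (-0.20). Ctdnep1 ranged from -0.075 to 0.037 with each library left out. The alternatives for sums and for genes other than the 10 were chosen after seeing the data. The 9 ratios of Lpin1 to another gene kept their direction with each library left out and with a pseudocount of 10 counts.

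The number of called genes over the whole table was 173, with 270 under scaling to adipocyte markers (263 higher and 7 lower, against 136 and 37), 992 of 14704 with DESeq2 and 1403 of 28515 genes with a minimum of 1 count, and it ranged from 1 to 178 with a library left out. With the replicate block it was 224, and Lpin1 was at -0.70 (edgeR adjusted p = 0.0111). Number 4 occurs only in Adipoq-F2-KO, so in that fit its library added nothing to the genotype difference. Deviations of same-numbered libraries correlated at 0.0743, -0.0264 and -0.0404, which gives no sign that the replicate numbers pair libraries. So few pairs cannot exclude such a pairing. Lpin2 and Lpin3, the genes of lowest depth among the 10, had standard errors of 0.15 and 0.14. The lower ends of the 95% intervals of the 9 genes other than Lpin1 lay between -0.65 and -0.16, and a missed threshold does not show equal levels.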

Other observations

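Other regulators of adipocyte lipid metabolism, named after their values were seen, went in opposite directions. Pparg, the master regulator of adipocyte differentiation, was at 188, 213 and 214 normalized CPM in FFA2 fl/fl and at 229, 273, 242 and 244 in Adipoq-F2-KO. Its values lay apart between genotypes, with a log2 fold change of 0.27 and standard error 0.09 (edgeR adjusted p = 0.178). Nr1h3, which encodes the sterol-sensing receptor LXR alpha, was at 110, 117 and 132 normalized CPM in FFA2 fl/fl and at 99.5, 85.3, 101 and 86.0 in Adipoq-F2-KO. It also lay apart between genotypes, with a log2 fold change of -0.36 and standard error 0.10 (edgeR adjusted p = 0.108). Nr1h3 was called with DESeq2 (-0.36, adjusted p = 0.0308) and in edgeR with a minimum of 1 count (-0.36, adjusted p = 0.0337). With scaling to adipocyte markers Nr1h3 was at -0.09 (edgeR adjusted p = 0.680) and Pparg at 0.55 (edgeR adjusted p = 0.0639).

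The 3 tested erythroid markers all had log2 fold changes above 0 (median 0.59). Hbb-bs, the most abundant, averaged 79.5 normalized CPM in FFA2 fl/fl libraries and 115 in Adipoq-F2-KO libraries. The erythroid markers summed to 72.2 to 164 normalized CPM in FFA2 fl/fl libraries and 157 to 271 in Adipoq-F2-KO libraries. Mesothelial markers, with Krt19 the most abundant, summed to 9.87 to 25.9 and 7.52 to 10.99. Krt19 stood high in FFA2 fl/fl library 1 alone, at 18.7 normalized CPM against 4.44 or less in the other libraries. Epididymal and germ cell markers summed to 0 to 2.44 and 1.20 to 79.0, with Prm2 the most abundant. Adipoq-F2-KO library 2 stood apart, with Prm2 at 54.1 normalized CPM against 5.31 or less in the other libraries. Lcn5, Defb30 and Spink11 had 0 counts in all 7 libraries. Of these lists 0 genes were called (edgeR). At an unadjusted p under 0.05 there were 6, a threshold that 17.9% of all tested genes met. Of the 3 tested erythroid and the 3 tested epididymal and germ cell markers, 2 each were higher. Of 6 mesothelial markers, 1 was higher and 1, Krt19, was lower.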
